A study of Mus musculus with 8 samples.

Results

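10 transcription factor genes that pattern the mesenchyme of the gut wall were followed through gut epithelium of mouse embryos: Barx1, Nkx2-3, Nkx2-5, Nkx3-2, Foxf1, Foxf2, Foxl1, Osr1, Osr2 and Six2. They were chosen by name, and all 10 were present among the 23393 gene symbols of the table. Poly(A) RNA had been sequenced from 8 libraries labelled E16.5 in their titles and E16 in their age tag, 2 each from forestomach (the upper stomach, lined by squamous epithelium), hindstomach (its glandular part), proximal small intestine (intestine below) and colon. The labels' protocol names untreated ShhCre;R26YFP/+ embryos, in which Cre made from the Shh gene switches on a fluorescent reporter in Shh-expressing cells and their descendants, as the source of E16.5 epithelium, and it gives no other genotype. Forestomach epithelium was peeled by hand after 15 minutes in Dispase, whereas epithelium was shaken off in 10 mM EDTA from the hindstomach and in 5 mM EDTA from intestine and colon, so tissue and isolation cannot be told apart there. The number of embryos behind a library is not given in the sources used here, and p-values measure only the spread between libraries, which may be technical.

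The wall of the gut forms from endoderm, which gives the epithelium, and from splanchnic mesoderm, which gives the connective tissue and muscle around it. Sonic and Indian hedgehog from the epithelium act on the mesenchyme, where the forkhead genes Foxf1, Foxf2 and Foxl1 are known targets. Homeobox genes give that mesenchyme regional identity: Barx1 in the stomach, Nkx2-3 in the midgut and hindgut, Nkx2-5, Nkx3-2 and Six2 around the distal stomach and pylorus. Osr1 and Osr2 encode related zinc finger factors of embryonic mesoderm. Since the libraries were prepared as epithelium, RNA of these genes can come from mesenchyme carried along as well as from epithelial cells, and in bulk RNA fewer cells of a type and less RNA per cell cannot be told apart.

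Markers of mesenchyme were present in every library and in unequal amounts. Levels throughout are in FPKM, in which fragments are scaled by the length of the transcript and the size of the library. The summed level of 15 mesenchyme and smooth muscle markers was 3797 and 120 FPKM in forestomach replicates 1 and 2, 264 and 400 in the hindstomach, 404 and 84.5 in the intestine, and 769 and 1795 in the colon. None of the 15 lay under 1 FPKM in both libraries of any tissue. Markers of endothelium (5 genes, 0.432 to 44.1 FPKM), enteric neurons and glia (6 genes, 2.399 to 67.5) and mesothelium (4 genes, 29.1 to 80.8) were lower, and pancreatic acinar markers (5 genes) reached 3360 FPKM in hindstomach replicate 1 but 1.24 at most in the forestomach. Their part in the results was not tested. Epithelial markers (6 genes) summed to between 1307 and 4117 FPKM. Markers of intestinal epithelium (7 genes) summed to 2384 and 2430 FPKM in the hindstomach, above its 8 glandular stomach markers (1291 and 1934). They reached 11464 and 16417 FPKM in the intestine, 8782 and 2961 in the colon and 34.2 at most in the forestomach. What this means for comparisons with the hindstomach was not tested. The library labelled forestomach replicate 1 stood apart: squamous markers were present (1427 FPKM over 6 genes, against 12845 in replicate 2), but 8 glandular stomach markers summed to 165953 FPKM against 59.1 in replicate 2. The 2 forestomach libraries correlated at 0.713 (Pearson's r over 12894 genes). Both correlated better with the hindstomach libraries, replicate 1 at 0.778 and 0.801 and replicate 2 at 0.733 and 0.717. The correlation thus does not single out replicate 1. Because of its glandular markers, results that rest on forestomach replicate 1 are given with and without it. Without it the forestomach is 1 library, so every test then takes its spread from the other 3 tissues. Tests that involve the forestomach also assume that the lone library varies as those tissues do. Total FPKM ran from 328490 to 378497 in 7 libraries and was 545227 in that one. Read depth is unknown, because the table holds no counts.

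**Figure D1:**
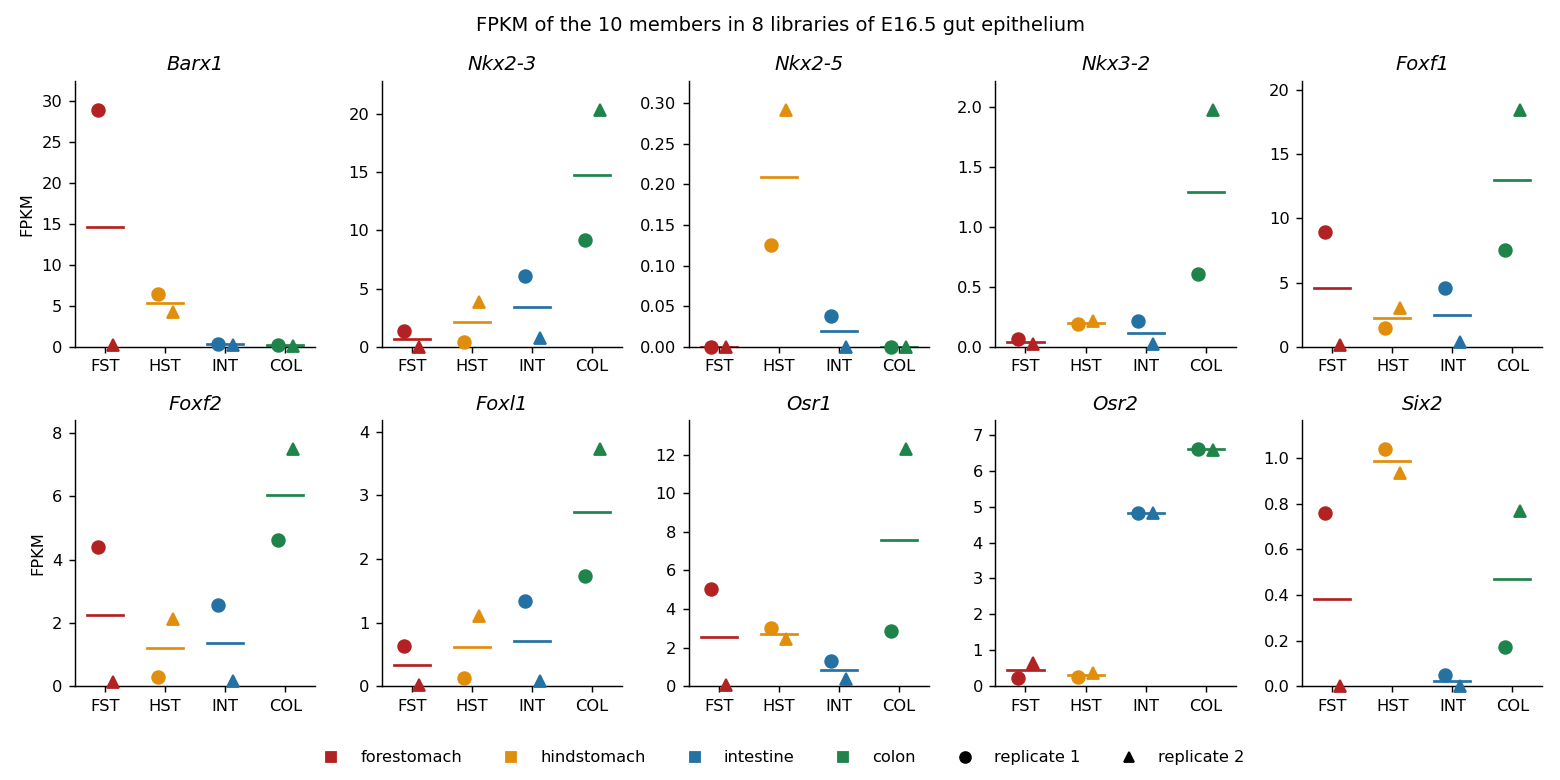
FPKM on a linear vertical axis from 0 for each of the 10 genes, in forestomach (FST), hindstomach (HST), intestine (INT) and colon (COL), where a circle is replicate 1, a triangle replicate 2 and a line their mean. Osr2 has nearly equal values in the libraries of intestine and of colon and is high in all 4 (4.81 to 6.61 FPKM), Barx1 is high in forestomach replicate 1 and both hindstomach libraries, and most other genes peak in colon replicate 2.

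The forkhead genes Foxf1, Foxf2 and Foxl1 had their highest mean in the colon and differed widely between the libraries of a tissue. Foxf1, a forkhead gene needed for splanchnic mesoderm (chromosome 8, 121084386 to 121088144 in GRCm38, plus strand, protein coding, 2 exons), had 8.92 FPKM in forestomach replicate 1 and 0.178 in replicate 2, 1.46 and 3.01 in the hindstomach, 4.61 and 0.367 in the intestine and 7.52 and 18.5 in the colon. Both colon libraries lay above those of hindstomach and intestine, while the forestomach pair spanned the values of both. Its paralog Foxf2 (chromosome 13, 31625816 to 31631403) had 4.38 and 0.137 FPKM in the forestomach, 0.273 and 2.12 in the hindstomach, 2.56 and 0.170 in the intestine and 4.61 and 7.50 in the colon. Foxl1, a forkhead gene of the mesenchymal cells just under the epithelium (chromosome 8, 121127940 to 121130644, 1 exon), had 0.636 and 0.020 FPKM in the forestomach, 0.123 and 1.10 in the hindstomach, 1.34 and 0.074 in the intestine and 1.73 and 3.73 in the colon. Each had forestomach and intestine pairs that differed by more than 10-fold, so their ranges overlapped. None of the 3 passed the test in any of 6 pairwise tissue comparisons or in bowel against stomach with all 8 libraries.

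Within each tissue the 3 forkhead genes were higher in the library with more mesenchyme marker RNA. In the intestine, replicate 1 exceeded replicate 2 by 12.6-fold for Foxf1, 15.1-fold for Foxf2 and 18.1-fold for Foxl1, where the median of the 15 mesenchyme markers was 4.79-fold and that of 6 epithelial markers 0.964-fold. In the colon, replicate 2 exceeded replicate 1 by 2.46-fold, 1.63-fold and 2.15-fold, against 2.46-fold for the mesenchyme markers. In the hindstomach, replicate 2 exceeded replicate 1 by 2.07-fold for Foxf1, 7.75-fold for Foxf2 and 9.01-fold for Foxl1, against 1.73-fold for the markers. The correlation of log2(FPKM + 1) with the mesenchyme score, the mean log2(FPKM + 1) of the 15 markers, was 0.981 for Foxf1, 0.944 for Foxf2 and 0.797 for Foxl1 over 8 libraries, and 0.991, 0.950 and 0.955 over the 7 without forestomach replicate 1. These are descriptions over libraries that share their normalization within each point, and how much of the levels comes from mesenchyme in the preparations was not tested.

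**Figure D2:**
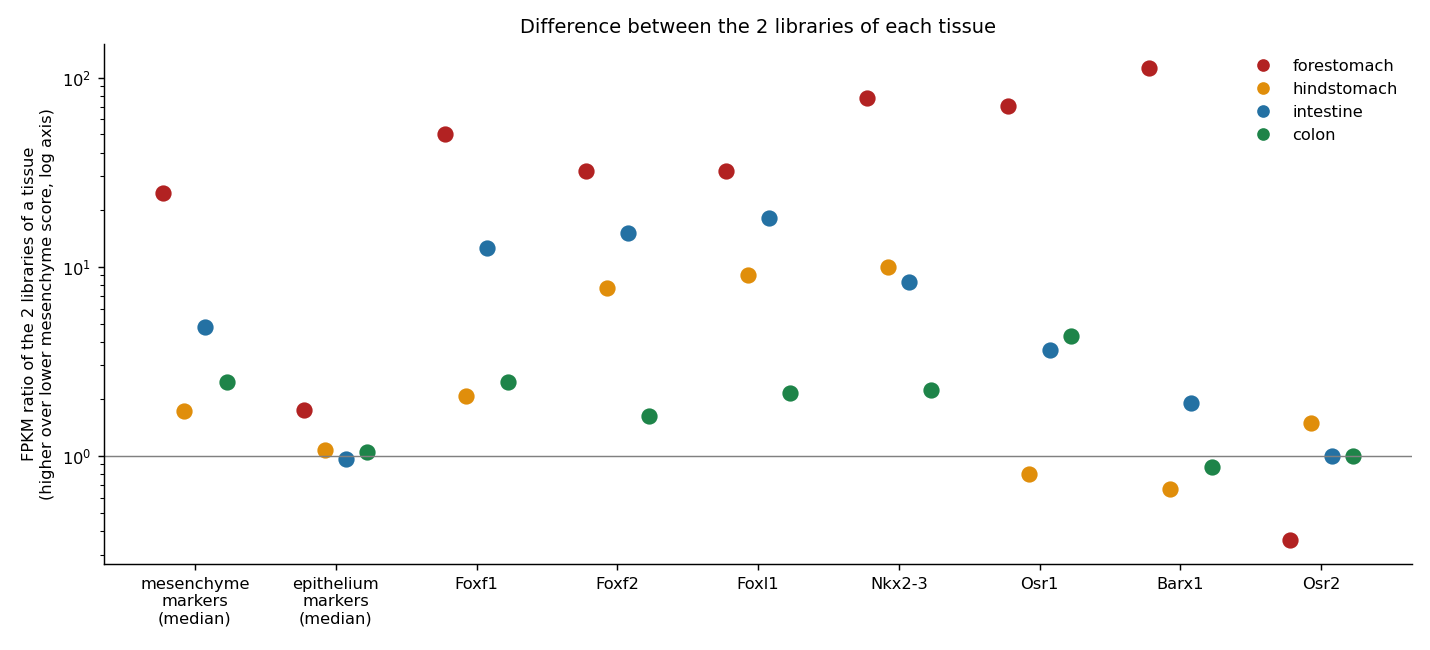
Ratio of FPKM between the 2 libraries of each tissue, the one with the higher over the one with the lower mesenchyme score, on a log axis, with 1 point a tissue. The mesenchyme and epithelium columns are medians of 15 and 6 genes. Foxf1, Foxf2, Foxl1 and Nkx2-3 lie above 1 in all 4 tissues, and Osr2 lies at 0.996 in both intestine and colon.

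Nkx2-3, a homeobox gene of intestinal mesenchyme and spleen (chromosome 19, 43612325 to 43615892, plus strand, 2 exons), followed an order from colon over intestine and hindstomach to forestomach. It stood at 1.33 and 0.017 FPKM in the forestomach, 0.388 and 3.87 in the hindstomach, 6.06 and 0.728 in the intestine and 9.17 and 20.4 in the colon. Both colon values lay above those of every other library, while intestine replicate 2 lay below hindstomach replicate 2. The colon to forestomach difference was 3.26 ± 0.92 (log2 fold change ± SE on the log2(FPKM + 1) scale, which understates changes of low genes; limma adjusted p = 0.0681), short of the threshold, and 3.86 ± 1.09 without forestomach replicate 1 (limma adjusted p = 0.0401, against the lone library of replicate 2). Without replicate 2 it was 2.66 ± 1.09 (adjusted p = 0.0921). Neighbouring tissues in that order did not pass the test: colon minus intestine was 2.08 ± 0.89 without and 2.08 ± 0.92 with that library, intestine minus hindstomach 0.43 ± 0.92 and hindstomach minus forestomach 0.76 ± 0.92. In the hindstomach, replicate 2 exceeded replicate 1 by 9.98-fold, near the 9.01-fold of Foxl1 and the 7.75-fold of Foxf2.

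Relative to the mesenchyme markers, Nkx2-3 varied less within the bowel. It stood at 15.0 and 8.61 FPKM per 1000 FPKM of marker sum in the intestine and 11.9 and 11.4 in the colon, where the FPKM values themselves ran from 0.728 to 20.4. The same quantity was 1.47 and 9.69 in the hindstomach and 0.350 and 0.142 in the forestomach. Foxf1 showed 11.4 and 4.34 in the intestine, 9.77 and 10.3 in the colon, 5.50 and 7.53 in the hindstomach and 2.35 and 1.49 in the forestomach. The forestomach libraries thus held the lowest values per marker for both genes, and for forestomach replicate 1 the muscle genes Acta2, Tagln, Myh11 and Des made up 3255 of the 3797 FPKM. With the other 11 markers as the base, chosen after seeing the data, Foxf1 was at 16.46 in forestomach replicate 1, within the 8.0 to 19.1 of the bowel, and Nkx2-3 at 2.45, below the 15.9 to 25.03 of the bowel.

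Barx1, the homeobox gene that specifies stomach mesenchyme and there promotes Wnt antagonists, was high in 3 of 4 stomach libraries and low in all 4 bowel libraries (chromosome 13, 48662998 to 48666507 in GRCm38, plus strand, 4 exons). Forestomach replicate 1 held 28.9 FPKM and replicate 2 held 0.256, beside 6.41 and 4.29 in the hindstomach, 0.384 and 0.203 in the intestine and 0.175 and 0.153 in the colon. Both hindstomach libraries lay above all bowel libraries, but forestomach replicate 2 lay within the bowel range. The colon libraries, with up to 1795 FPKM of mesenchyme markers, had the lowest Barx1 of all. Per 1000 FPKM of markers Barx1 was at 24.2 and 10.7 in the hindstomach, 7.62 and 2.14 in the forestomach, 0.951 and 2.402 in the intestine and 0.227 and 0.085 in the colon. With the 11 markers other than muscle genes as the base, the order turned for forestomach replicate 1 only. That library held 53.4, above the 31.5 and 16.0 of the hindstomach, while forestomach replicate 2 held 2.51 and the bowel 4.43 at most. The correlation of Barx1 with the mesenchyme score was 0.337 over 8 libraries and -0.072 over 7.

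The forestomach pair decided whether Barx1 was called. With all 8 libraries bowel minus stomach was -2.34 ± 0.94 (limma adjusted p = 0.161), and no pairwise comparison was called. Intestine minus hindstomach was then -2.28 ± 1.33 and colon minus hindstomach -2.43 ± 1.33. Leaving out forestomach replicate 1 kept these estimates and lowered only their SE, to 0.22, since the forestomach pair no longer added to the spread. Leaving out replicate 2 instead did the same (SE 0.21). Barx1 reached 1 FPKM in 3 libraries, all of the stomach, and without forestomach replicate 1 only in the 2 hindstomach libraries. In every fit with the filter, Barx1 thus passed only through the side where it is high. Its calls below, also those for bowel minus stomach and with the covariate, are therefore not independent of that filter. Without forestomach replicate 1 Barx1 fell in the bowel by 1.19 ± 0.18 on the log2 scale (limma adjusted p = 0.00447), in the intestine against the hindstomach by 2.28 ± 0.22 (adjusted p = 0.00319) and in the colon against the hindstomach by 2.43 ± 0.22 (adjusted p = 0.00416). Without forestomach replicate 2 the bowel minus stomach value was -3.48 ± 0.17 (adjusted p = 2.71e-04). Against forestomach replicate 2 alone the hindstomach was higher by 2.32 ± 0.27 (adjusted p = 0.00305), and against replicate 1 alone it was lower (-2.26 ± 0.26, adjusted p = 0.00457), both with the spread of the other tissues. Forestomach and hindstomach thus cannot be ordered for Barx1 from these libraries. With the mesenchyme score as a covariate and all 8 libraries, bowel minus stomach was -2.79 ± 0.51 (limma adjusted p = 0.0113). In that fit colon minus forestomach was also called (adjusted p = 0.0239). Colon minus hindstomach (0.0528), intestine minus hindstomach (0.146) and intestine minus forestomach (0.14) were not. Within a tissue the score differed most in the forestomach (5.87 and 1.92), so the adjustment leans on that pair.

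**Figure D3:**
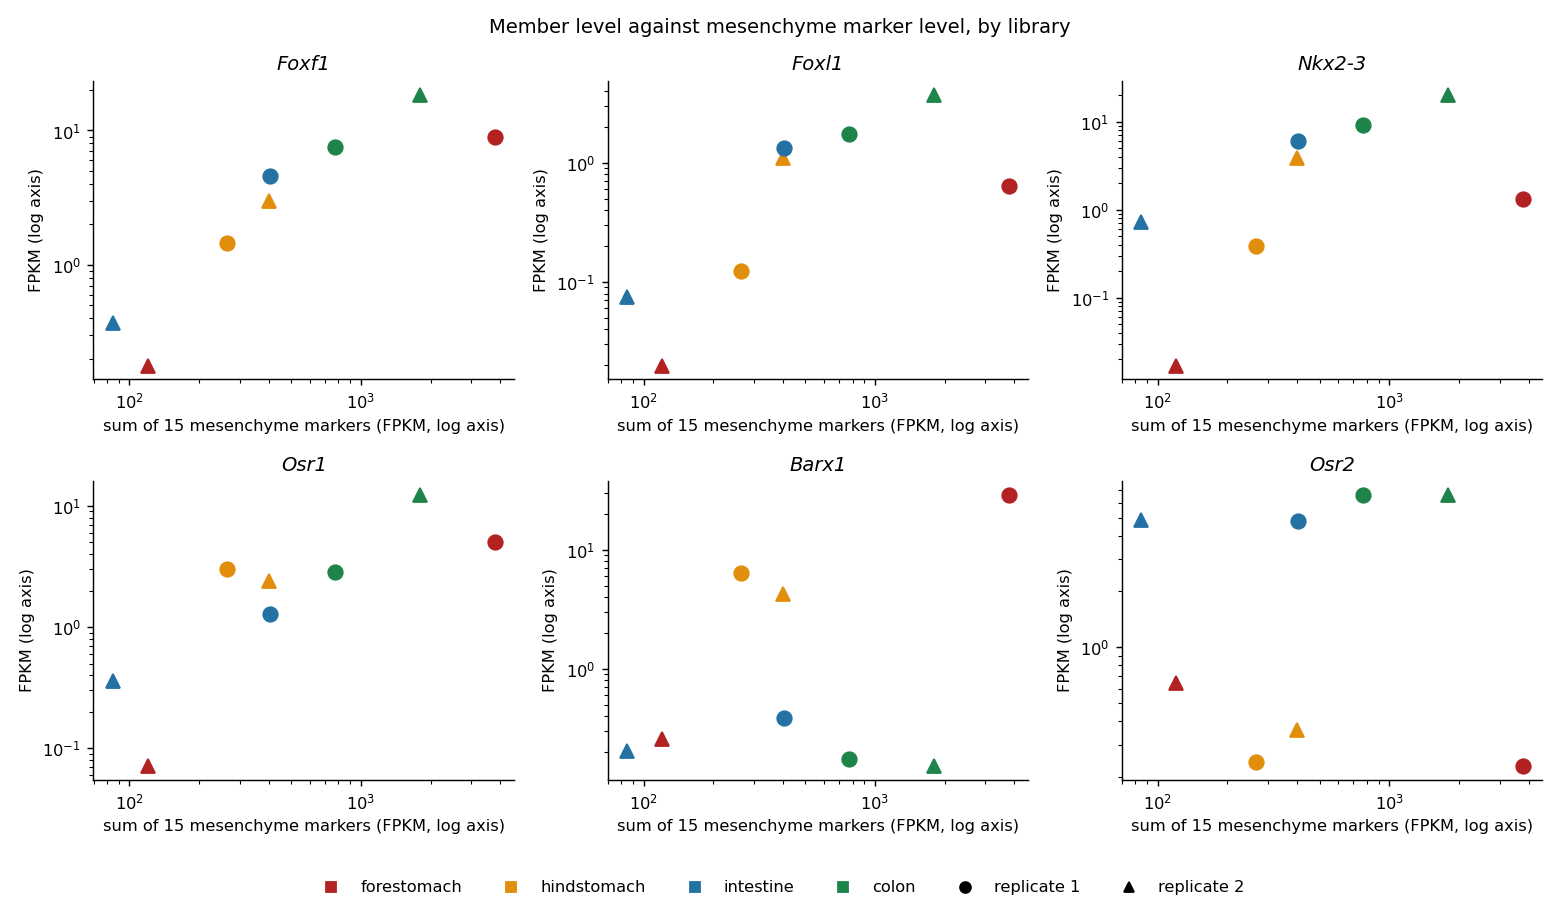
FPKM of 6 of the genes against the summed FPKM of 15 mesenchyme markers, both on log axes, with 1 point a library, colored by tissue. Foxf1, Foxl1, Nkx2-3 and Osr1 are at or near their lowest in the libraries with the lowest marker sums (84.5 and 120 FPKM), Barx1 is lowest in the colon although its marker sums reach 1795, and Osr2 is level across the 4 bowel libraries.

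Promoter sequences, 250 bases before to 50 after the transcription start from RefSeq on GRCm38.p6, were found for 6 of the 10 genes (Barx1, Nkx2-3, Nkx2-5, Nkx3-2, Foxf2 and Six2). The 3 below are shown because Barx1 was higher in the hindstomach than in the bowel libraries, Nkx2-3 was highest in the colon, and Foxf2 and Nkx2-3 were correlated (r = 0.864 over 8 libraries and 0.989 without forestomach replicate 1). Letters run 5′ to 3′ on the plus strand, and capitals mark GGGCGG or its reverse complement CCGCCC, the GC box.
Barx1, chr13:48662786-48663085: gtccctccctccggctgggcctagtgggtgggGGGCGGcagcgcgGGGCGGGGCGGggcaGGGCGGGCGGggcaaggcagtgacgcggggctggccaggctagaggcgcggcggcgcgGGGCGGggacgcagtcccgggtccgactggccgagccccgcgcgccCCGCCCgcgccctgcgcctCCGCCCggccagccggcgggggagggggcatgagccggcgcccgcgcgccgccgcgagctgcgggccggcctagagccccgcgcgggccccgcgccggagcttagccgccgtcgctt
Nkx2-3, chr19:43612075-43612374: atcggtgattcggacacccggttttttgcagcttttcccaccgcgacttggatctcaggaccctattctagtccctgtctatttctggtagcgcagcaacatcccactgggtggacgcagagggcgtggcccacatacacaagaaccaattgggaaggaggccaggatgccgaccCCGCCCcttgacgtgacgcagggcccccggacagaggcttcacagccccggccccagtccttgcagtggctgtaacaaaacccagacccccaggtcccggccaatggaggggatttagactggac
Foxf2, chr13:31625566-31625865: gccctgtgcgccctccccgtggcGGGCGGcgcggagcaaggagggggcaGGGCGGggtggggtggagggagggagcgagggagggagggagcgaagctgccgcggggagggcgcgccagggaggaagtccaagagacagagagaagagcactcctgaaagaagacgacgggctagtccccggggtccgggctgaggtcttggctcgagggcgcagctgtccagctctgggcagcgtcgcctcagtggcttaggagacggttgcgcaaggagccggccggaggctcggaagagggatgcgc
The Barx1 window held 8 GC boxes (starts counted separately where they overlap), Foxf2 held 2 and Nkx2-3 held 1, and 35.66% of 32851 promoters of this length held at least 1. G and C made up 84.7% of the Barx1 window, 71.3% of Foxf2 and 60.0% of Nkx2-3, against a median of 52.7% over all promoters. Both strands of the 6 windows were also searched for other motifs, with no match. GACCACCCA, bound by the Gli factors of hedgehog signalling, occurred in 0.25% of all promoters. The forkhead motif TGTTTAC occurred in 3.65% of them. For Nkx2 factors the letters were TCAAGTG, found in 3.06%. For Cdx factors they were TTTATGG, found in 2.75%. The TATA box, TATAAA, occurred in 13.62%.

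Osr2, the odd-skipped zinc finger gene (chromosome 15, 35296098 to 35303305, plus strand, 3 exons in its longest transcript), was the member that separated bowel from stomach in every library. It stood at 0.230 and 0.645 FPKM in the forestomach, 0.243 and 0.360 in the hindstomach, 4.81 and 4.83 in the intestine and 6.61 and 6.59 in the colon. All 4 bowel libraries lay above all 4 stomach libraries. Osr2 was the 1 of 7 tested members without overlap, beside 16.2% of 12894 tested genes in either direction. It reached 1 FPKM only in the 4 bowel libraries, so it entered the tested genes only through the side where it is high. Its separation and its calls are therefore not independent of that filter. Osr2 rose in the bowel by 2.29 ± 0.16 on the log2 scale (limma adjusted p = 7.08e-04), and by 2.18 ± 0.11 without forestomach replicate 1 (adjusted p = 2.20e-04). It was the 1 member called among 7 tested in that comparison, where 10.6% of all genes were called.

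Both bowel tissues were higher than both stomach tissues for Osr2, while neither pair of tissues within bowel or stomach was called. The intestine exceeded the hindstomach by 2.16 ± 0.22 (limma adjusted p = 0.0113) and the forestomach by 2.03 ± 0.22 (0.00296). The colon exceeded the hindstomach by 2.55 ± 0.22 (limma adjusted p = 0.00789) and the forestomach by 2.42 ± 0.22 (0.00217). These 4 comparisons share libraries. The calls against the forestomach held with each library left out in turn, whereas those against the hindstomach ended when any library of the compared tissues was left out (adjusted p from 0.0767 to 0.169), which leaves 1 library on that side. The log2 fold changes themselves stayed between 2.10 and 2.23 for the intestine and between 2.48 and 2.61 for the colon. Colon minus intestine was 0.39 ± 0.22 (adjusted p = 0.461) and hindstomach minus forestomach -0.13 ± 0.22 (adjusted p = 0.714).

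Between the libraries of a bowel tissue Osr2 was nearly equal, while the mesenchyme markers were not. The ratio of the library with more to that with less mesenchyme marker RNA was 0.996 in the intestine and 0.996 in the colon, beside 4.79 and 2.46 for the markers and 0.964 and 1.04 for the epithelial markers. Per 1000 FPKM of markers Osr2 ran from 0.061 in forestomach replicate 1 to 57.1 in intestine replicate 2, a range of 942-fold where that of its FPKM was 28.7-fold. The 942-fold rests on forestomach replicate 1: over the 6 hindstomach and bowel libraries the range per marker was 63.4-fold, against 27.2-fold in FPKM, and with the 11 other markers it was 248-fold over all 8. Foxf1 went the other way, from a 104-fold range in FPKM to 7.68-fold per marker over all 8 libraries and from 50.4-fold to 2.63-fold over those 6. Which cells of the bowel libraries held the Osr2 RNA was not tested.

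Its relative Osr1 (chromosome 12, 9570116 to 9581500, plus strand), an early marker of lateral and intermediate mesoderm, had another pattern. It stood at 5.03 and 0.071 FPKM in the forestomach, 3.02 and 2.42 in the hindstomach, 1.29 and 0.357 in the intestine and 2.85 and 12.3 in the colon. Both hindstomach libraries lay above both intestine libraries, the forestomach pair spanned the hindstomach values, and the colon pair ranged upward from within them. Per 1000 FPKM of markers Osr1 had its highest mean in the hindstomach, at 11.4 and 6.05, against 3.19 and 4.23 in the intestine, 3.70 and 6.85 in the colon and 1.33 and 0.595 in the forestomach. No comparison was called with all libraries, and bowel minus stomach was 0.21 ± 0.65 (limma adjusted p = 0.872). The colon exceeded forestomach replicate 2 alone by 2.74 ± 0.74 (limma adjusted p = 0.0353, spread from the other tissues), whereas against replicate 1 alone the difference was 0.245 ± 0.74 (adjusted p = 0.801). The correlation of Osr1 with Osr2 was 0.111 over 8 libraries, against 0.893 with Foxf1.

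**Figure D4:**
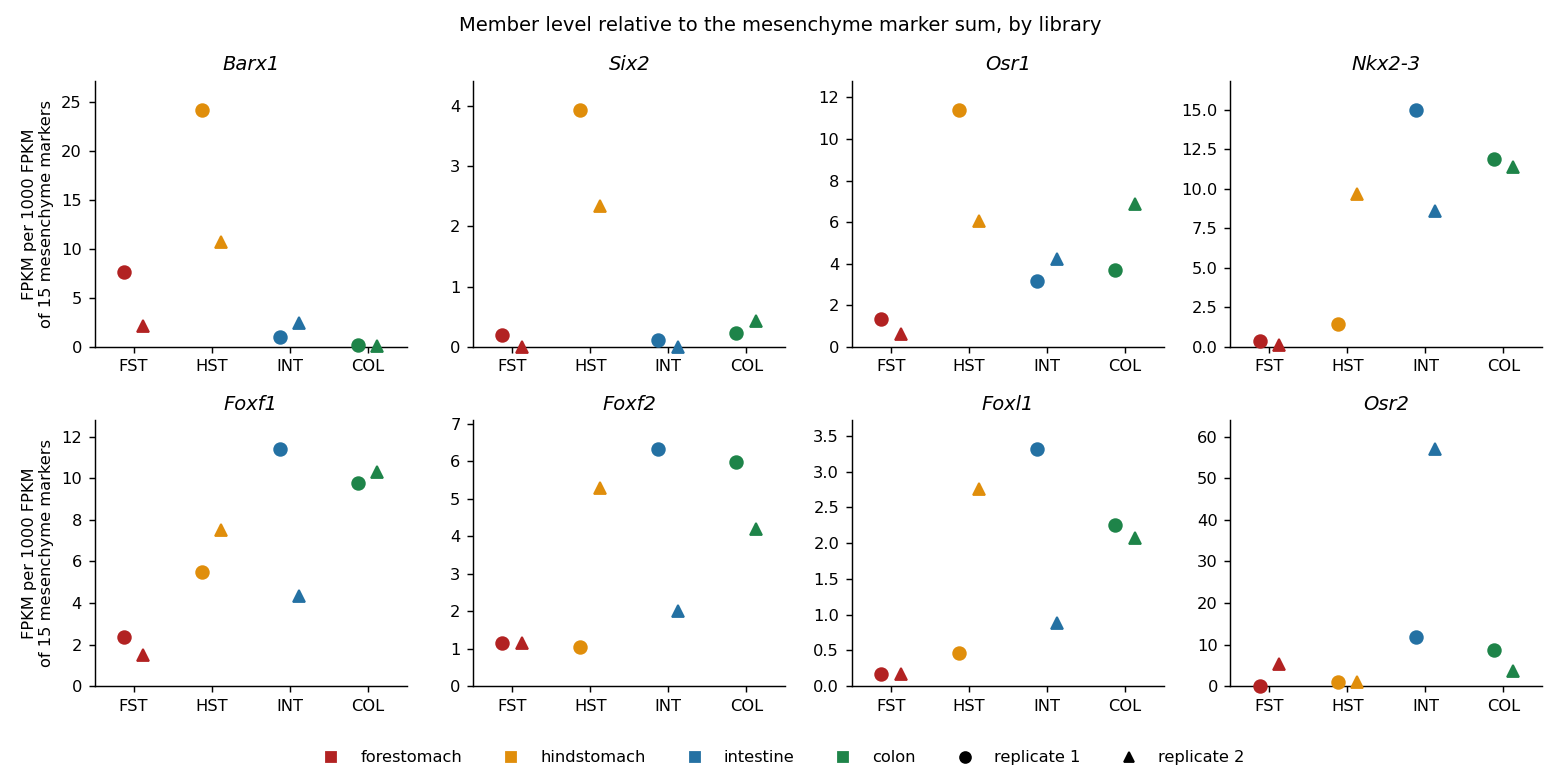
FPKM of 8 of the genes per 1000 FPKM summed over 15 mesenchyme markers, on linear axes from 0, in forestomach (FST), hindstomach (HST), intestine (INT) and colon (COL), with circles for replicate 1 and triangles for replicate 2. Barx1, Six2 and Osr1 are highest in hindstomach replicate 1 (24.2, 3.94 and 11.4). Nkx2-3 and Foxf1 are highest in intestine replicate 1 (15.0 and 11.4), and Osr2 in intestine replicate 2 (57.1). With 11 markers without muscle genes, Barx1 is highest in forestomach replicate 1. On that base Foxf1 is highest in colon replicate 1 (19.10, against 19.02 in intestine replicate 1).

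Six2, Nkx3-2 and Nkx2-5 stayed below 1 FPKM in at least 7 libraries and were not tested. Six2, a homeobox gene of distal stomach mesenchyme and kidney progenitors (chromosome 17, 85684277 to 85688274, minus strand), stood at 1.04 and 0.933 FPKM in the hindstomach, 0.761 and 0 in the forestomach, 0.047 and 0 in the intestine and 0.173 and 0.769 in the colon. The hindstomach libraries were highest, and per 1000 FPKM of markers they held 3.94 and 2.33, against at most 0.428 elsewhere. Nkx2-5, known for the heart and for the pyloric sphincter (chromosome 17, 26838664 to 26845009, minus strand), was listed at 0 in 5 libraries. It reached 0.126 and 0.292 FPKM in the hindstomach and 0.038 in intestine replicate 1. Nkx3-2, also called Bapx1 (chromosome 5, 41761483 to 41764501, minus strand), was highest in the colon, at 0.609 and 1.98 FPKM, against 0.188 and 0.214 in the hindstomach, 0.216 and 0.019 in the intestine and 0.062 and 0.021 in the forestomach. With the filter on low values removed, none of the 3 was called for bowel minus stomach (limma adjusted p = 0.339 for Six2, 0.188 for Nkx2-5 and 0.234 for Nkx3-2).

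**Figure D5:**
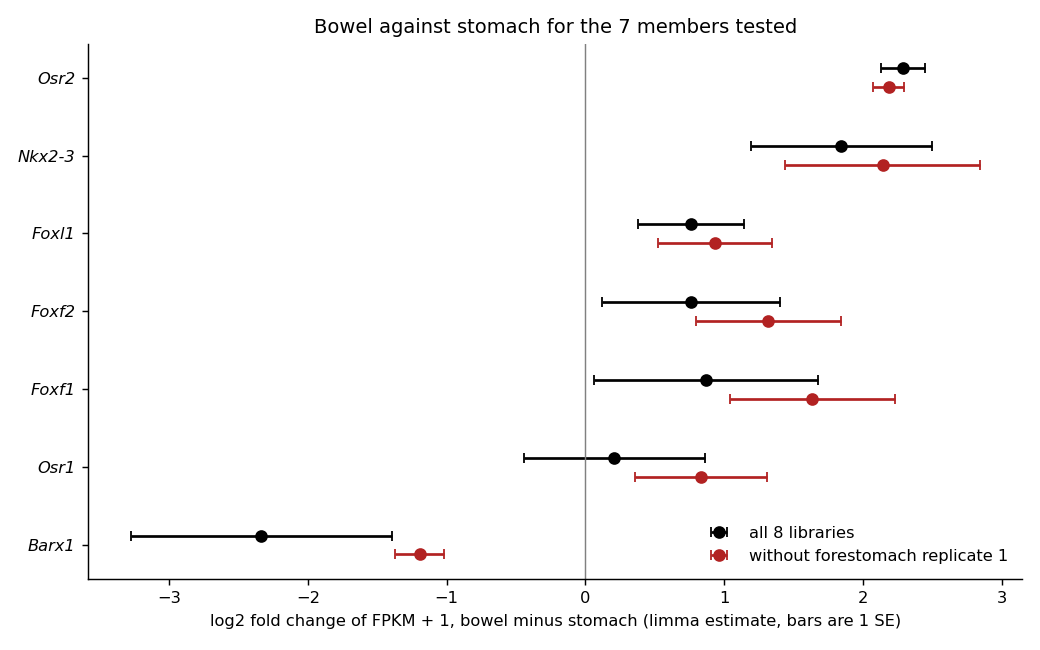
Log2 fold change of FPKM + 1 for bowel minus stomach in the 7 genes tested, with bars of 1 SE from limma, for all 8 libraries (black) and without forestomach replicate 1 (red). Osr2 has the smallest SE and stays near 2.29, and Barx1 moves from -2.34 to -1.19 while its SE shrinks from 0.94 to 0.18.

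Taking the members by comparison, with 7 tested in each, limma at an adjusted p under 0.05 and at least 2-fold called Osr2 in each of the 4 comparisons of a bowel with a stomach tissue and in bowel minus stomach. Background shares of called genes were 5.03% for intestine minus hindstomach, 17.1% for intestine minus forestomach, 11.6% for colon minus forestomach and 1.5% for colon minus hindstomach. In colon minus intestine 0 of 7 members were called, 0 had an unadjusted p under 0.05, and 0.38% of all genes were called. Hindstomach minus forestomach likewise had 0 of 7 called, 0 at an unadjusted p under 0.05 and a background of 5.59%. Without forestomach replicate 1, 4 of 7 were called in colon minus forestomach (Foxf1, Nkx2-3, Osr1 and Osr2, all higher), beside 25.6% of all genes. The forestomach side was then replicate 2 alone, and its spread was taken from the other tissues. In that fit, comparisons without the forestomach kept their estimates and changed only in spread. Barx1 and Osr2 were then called in bowel minus stomach (17.1% of all genes), intestine minus hindstomach (17.4%) and colon minus hindstomach (7.59%), and Barx1 in hindstomach minus forestomach (20.9%). The colon exceeded that lone library by 3.45 ± 0.92 for Foxf1 (limma adjusted p = 0.0341), and 12 of the 15 mesenchyme markers rose in the same fit. Against forestomach replicate 1 alone, the Foxf1 difference was 0.38 ± 0.92 (adjusted p = 0.753).

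The median log2 fold change of the 7 members was 1.76 in colon minus intestine, where that of the 15 mesenchyme markers was 2.4 and that of all genes 0.23. In bowel minus stomach it was 0.76, against 0.60 for the markers and 0.07 for all genes. Without forestomach replicate 1 these were 1.32, 1.60 and 0.01, so that the markers then had the higher median, while the values for colon minus intestine were the same. Values of colon and intestine did not overlap for 9 of the 10 members (7 of 7 tested), 8 of them higher in the colon and Barx1 lower, a description to be read beside the 76.4% of tested genes whose values did not overlap there.

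Other transcription factors of gut mesenchyme also differed between bowel and stomach. Of a list of 22, 18 were tested, and in bowel minus stomach Hand1 and Prrx1 rose. Hand1 reached 1 FPKM only in the colon libraries and Prrx1 only in the bowel libraries. Both thus passed the filter only through the side where they were higher, and their calls are not independent of it. Hand1, a basic helix-loop-helix factor, stood at 0.004 and 0 FPKM in the forestomach, 0.039 and 0.446 in the hindstomach, 0.848 and 0.268 in the intestine and 2.38 and 5.84 in the colon (1.29 ± 0.28, limma adjusted p = 0.0307). Prrx1, a mesenchymal homeobox gene, stood at 0.442 and 0.019 in the forestomach, 0.786 and 0.557 in the hindstomach, 3.55 and 3.35 in the intestine and 1.79 and 1.14 in the colon (1.21 ± 0.19, limma adjusted p = 0.00952). Like Osr2, Prrx1 was close between the 2 intestine libraries. Meis1 stood at 2.71 FPKM in forestomach replicate 1 and 10.4 in replicate 2. Its hindstomach libraries held 3.14 and 3.38 FPKM, those of the intestine 1.14 and 0.531, and those of the colon 2.07 and 5.87. Colon replicate 2 thus lay above both hindstomach libraries. With all 8 libraries bowel minus stomach was -0.87 ± 0.43 for Meis1 (limma adjusted p = 0.249), which was not called. Without forestomach replicate 1 it was -1.27 ± 0.32, resting in part on the lone forestomach library, replicate 2. In that fit Isl1, a factor of the developing pylorus that enteroendocrine cells also express, was lower in the intestine than in the hindstomach (-2.45 ± 0.22, adjusted p = 0.00264), as were Nr2f2, Meis2 and Pbx3.

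Among 12 genes for signals above and below these factors, 11 were tested and 1 changed in bowel minus stomach. The ligand gene Shh fell by 1.97 ± 0.43 on the log2 scale (limma adjusted p = 0.0295), with 23.4 and 6.15 FPKM in the forestomach, 19.9 and 23.1 in the hindstomach, 1.81 and 0.863 in the intestine and 5.32 and 10.1 in the colon. The related ligand Ihh was at 13.1 and 5.35 FPKM in the forestomach, 81.9 and 99.8 in the hindstomach, 34.7 and 33.5 in the intestine and 40.7 and 45.1 in the colon, and rose in the hindstomach against the forestomach by 3.27 ± 0.37 (adjusted p = 0.00985). Bmp4, a signal made by gut mesenchyme, ran with the forkhead genes: 8.91 and 0.855 FPKM in the forestomach, 1.14 and 3.35 in the hindstomach, 4.03 and 0.578 in the intestine and 8.12 and 16.7 in the colon. The Wnt antagonist genes Sfrp1 and Sfrp2, which Barx1 promotes in the stomach, were not called in that comparison. Sfrp2 stood at 4.47 and 3.47 FPKM in the hindstomach and 7.15 and 27.7 in the colon.

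The genes most alike in pattern were found by Pearson's r of log2(FPKM + 1) over the 8 libraries, among genes reaching 5 FPKM. For Foxf1 they were Pdgfra (0.998), Kdr (0.993) and Tcf21 (0.991), and for Foxf2 Col4a2 (0.991), Bmp4 (0.990) and Pdgfra (0.979). For Foxl1 they were Nkx2-3 (0.985), Hlx (0.977) and Ets1 (0.976), and for Nkx2-3 Col6a4 (0.984), Actc1 (0.982) and Mab21l2 (0.971). Osr1 was most like Pdzrn3 (0.985), Nrp1 (0.984) and Syt11 (0.983). Without forestomach replicate 1 the 3 closest were others for Osr1, namely Ptgis (0.996), Dkk2 (0.995) and Twf2 (0.995), and for Nkx2-3, namely Foxf2 (0.989), Colec10 (0.986) and Actg2 (0.985). In those 7 libraries Pdgfra (0.998) stayed for Foxf1, joined by Pdgfrb (0.996) and Emilin1 (0.995). Col4a2 (0.992) and Bmp4 (0.989) stayed for Foxf2 beside Nkx2-3 (0.989), and Nkx2-3 (0.989) stayed for Foxl1 beside Col4a2 (0.993) and Foxf2 (0.991). Barx1 had Pgc (0.992), Snx6 (0.989) and Gkn2 (0.986), of which Pgc and Gkn2 are gastric epithelial products at 97970 and 35988 FPKM in forestomach replicate 1. Over those 7 libraries Barx1 was most like Igfbp1 (0.994), Lypd6 (0.993) and Oxr1 (0.993). For Osr2 the closest were Xpnpep2 (0.984), Sept9 (0.984) and Tpcn1 (0.983), and Tpcn1 (0.989) stayed among the 3 over 7 libraries, with Mtmr11 (0.992) and Atg4d (0.988).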

How the data were processed

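Members and gene lists were chosen with earlier results of these data known. Per the submitters' processing notes STAR 2.4.2a and GRCm38 (mm10) were used. The authors deposited FPKM in 1 table. How FPKM were computed, with which annotation and strand, is not given in the sources used here. Genes that overlap may share reads: a model spanning Foxf1 and Foxl1 (not in the table), and an antisense transcript over the start of Osr1, listed at 0 in all libraries. Another 4 columns match no sample here and were not used. Coordinates come from GENCODE M21 (23257 symbols matched).

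Values were analysed as log2(FPKM + 1) after keeping the 12894 genes (7 of the 10 members) that reached 1 FPKM in 2 or more libraries. A gene high in 1 tissue could pass through that tissue alone, so its calls there are not independent of the filter. Tissue means were estimated by limma 3.58.1 (R 4.3.3, mean-variance trend, 4 residual degrees of freedom), with Benjamini-Hochberg adjustment over all genes within a comparison. A gene was called at an adjusted p under 0.05 and at least 2-fold. Bowel minus stomach contrasts the average of the intestine and colon means with that of the forestomach and hindstomach means. With no counts there is no interval or detection floor, and 0 means listed at 0. All 10 members were named. Of other lists, called genes were named, up to 6 a list (1 is not reported here), and Bmp4, Sfrp1, Sfrp2 and Ihh were chosen after their values were seen. For patterns, the 3 most correlated genes were named. The fit was tested on simulated data whose spread came from hindstomach, intestine and colon. That leaves out the forestomach pair, which differs most, so the simulation does not show how the fit performs on these data. Alternatives were another pseudocount, no filter, median-of-ratios scaling, a replicate block, the mesenchyme score as a covariate and each library left out.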

Additional observations from a re-analysis of the deposited data

How the results depend on the processing

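Of 221 refits (17 fold changes of members, each under 13 alternatives), 196 kept direction and call, 8 lost a call, 11 gained one and 6 turned. Only the Osr2 fold changes among the 17 were called in the main fit, so for the rest keeping the call meant staying uncalled. The tally also does not cover size. Foxf1 for colon minus forestomach kept both in 12 of 13, while its log2 fold change ran from 0.38 to 3.45 over the 13. The call of Osr2 for bowel minus stomach held in all 13 (2.18 to 3.69 on the log2 scale, limma adjusted p at most 0.00996). Osr1 for bowel minus stomach turned to -0.12 with the mesenchyme score as a covariate, -0.41 without forestomach replicate 2 and -0.24 without colon replicate 2 (up to 0.83 with another library left out). Barx1 for hindstomach minus forestomach turned to -0.28 with median-of-ratios scaling, -2.26 without forestomach replicate 2 and -0.21 without hindstomach replicate 1 (up to 2.32 with another left out). The cause was not tested.

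Counts of called genes moved more. Hindstomach minus forestomach had 721, and 455 with median-of-ratios scaling, 335 with the replicate block, 1605 with the covariate and 75 to 3126 with a library left out. Intestine minus hindstomach had 648, and 392 without the filter, 237 with the replicate block, 1423 with the covariate and 0 to 2173 with a library left out. Colon minus intestine had 49, and 22 with a pseudocount of 0.1, 9 with the replicate block, 26 with the covariate and 0 to 317 with a library left out. Colon minus hindstomach had 194, and 103 with that pseudocount, 99 with the replicate block, 582 with the covariate and 0 to 949 with a library left out. Colon minus forestomach had 1497, and 2387 with the covariate and 423 to 3552 with a library left out. With a library left out, intestine minus forestomach (2201) ran from 513 to 3949 and bowel minus stomach (1365) from 679 to 2138.

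With median-of-ratios scaling, higher genes went from 76.1% of calls to 49% of them for hindstomach minus forestomach, from 50.8% to 65.9% for intestine minus hindstomach and from 79.2% to 57% for colon minus forestomach, and the median of all genes from 0.388 to 0.052, from -0.246 to 0.001 and from 0.412 to 0.016. For colon minus intestine that median went from 0.227 to -0.085. The titles give only a replicate number, so whether equal numbers share a litter or batch is unknown here. Differences between replicates correlated between tissues from -0.578 to 0.27 over 12894 genes, which cannot settle it. With the replicate numbers as a block, 9 genes were called in colon minus intestine, and Osr2 kept its bowel minus stomach call (2.29). Barx1 in the hindstomach stood at 17.5 ± 9.54 (SD, n = 2) per 1000 FPKM of markers, 10.7 to 24.2 with a library left out.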

Other observations

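Foxf1 and Foxl1 are neighbours in the genome, and the genes around them were read from the same table as a description. They lie 39796 bases apart on chromosome 8 with Foxc2, another forkhead gene, between them. Foxc2 stayed at or below 0.288 FPKM in all 8 libraries, while Foxf1 reached 18.5 and Foxl1 3.73. The noncoding gene Fendrr lies 1276 bases before Foxf1 on the opposite strand. It stood at 4.48 and 0.054 FPKM in the forestomach, 0.827 and 2.16 in the hindstomach, 1.14 and 0.266 in the intestine and 4.37 and 9.31 in the colon, so colon replicate 2 was highest for Fendrr as for Foxf1. Mthfsd, between Foxf1 and Foxc2, ranged only from 1.45 to 2.39 FPKM.

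Foxf2 lies between Foxq1 and Foxc1 on chromosome 13, 64840 bases from the former and 175230 from the latter. Foxq1, a forkhead gene of the stomach epithelium, stood at 86.4 and 67.4 FPKM in the forestomach, 106 and 129 in the hindstomach, 5.82 and 6.68 in the intestine and 6.11 and 4.39 in the colon. Foxc1 stayed at or below 0.730 FPKM. In the same libraries Foxf2 ran from 0.137 to 7.50 FPKM and was highest in the colon.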
